A study of Danio rerio with 18 samples.

Results

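In GFP-positive cells sorted from wild-type zebrafish embryos, 200 genes of 28298 in the deposited table formed a set that rose in both intervals between 24, 48 and 72 hours post fertilization (hpf). They were chosen from the authors' regularized-log (rlog) values, a log2 scale on which the counts of low genes are pulled together. For each gene the means of the 2 wild-type GFP-positive libraries per stage were taken, and its score was the smaller of the rise from 24 to 48 hpf and the rise from 48 to 72 hpf. Of 10201 genes with at least 10 CPM (counts scaled to a common library total) on average in the 72 hpf libraries, 2637 had a score above 0 and the 200 with the highest scores were kept. The rises between wild-type GFP-positive stages are therefore how the genes were found, and they are given below as a description with no test.

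RNA was sequenced from sorted embryo cells of Danio rerio in 18 libraries. The wild type was sampled at 24, 48 and 72 hpf, and the tbx5, hand2 and gata5 genetic backgrounds at 72 hpf only. Each of these 6 conditions has 2 GFP-positive libraries and 1 GFP-negative library. The study describes the cells as cardiomyocytes, but the labels name neither the reporter behind GFP nor the allele carried in a genetic background, and they do not say whether 2 replicates are separate pools of embryos, so p-values reflect the spread from library to library, which may be technical. Levels are CPM scaled by the trimmed mean of M-values (TMM) over all 18 libraries.

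By 24 hpf the zebrafish heart is a beating tube, and between then and 72 hpf it loops, forms its chambers and starts valve formation. Over the same interval much of the rest of the embryo differentiates: hepatocytes begin to secrete plasma proteins, chondrocytes lay down the cartilage matrix of the jaw and fins, cones and rods of the retina start to make phototransduction proteins, and macrophages and other leukocytes spread. Gata5, Tbx5 and Hand2 are transcription factors needed for the heart. Gata5 is also known for its part in endoderm, from which the liver arises, Tbx5 for the pectoral fin, and Hand2 for the fin and the pharyngeal arches.

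Library totals ran from 5705157 counts in the wild-type 72 hpf GFP-negative library to 32141901 in the second wild-type 72 hpf GFP-positive library. HAND2 was at 2.55 and 0 TMM CPM in the hand2 GFP-positive libraries and at 0 in the hand2 GFP-negative one, the lowest 3 of 18 values. GATA5 and TBX5 reads remained in the libraries labelled with their names, so counts alone do not check those labels. Of 11 IDs matched to the defining cardiomyocyte markers, 10 were read in both wild-type GFP-positive libraries at 72 hpf and 1, a TNNT2 copy, only in the second. The 41-ID cardiac sarcomere and natriuretic peptide list summed to 2170.1 to 13294 TMM CPM in the GFP-positive libraries at 72 hpf, and the 36-ID xanthophore (yellow pigment cell) list to 15847 to 50919. GFP-negative libraries at 72 hpf gave 1708 to 3143 and 358 to 468 for these lists.

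The 200 scores ran from 1.31 to 4.31 rlog units, with a median of 1.71. The median rise was 2.28 rlog units from 24 to 48 hpf and 1.94 from 48 to 72 hpf, and 125 members had the larger rise in the first interval. In 84 members no read was counted in either 24 hpf GFP-positive library, and 110 were below 1 CPM in both. The libraries of neighbouring stages did not overlap in 180 members for 48 above 24 hpf, where 42.04% of the 10201 genes had the same order, in 188 members for 72 above 48 hpf against 24.5%, and in 171 for both steps against 8.55%. These shares follow from the selection and nothing is read from them. At the limit, GRIK3 and ANXA2 were among the last members and si:ch211-80h18.1, tnni4b.2 and PDK2 were the first genes outside, all with a score of 1.31.

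The replicates at 72 hpf were far apart for many members. In 94 of 200 they differed at least 2-fold, and 123 were higher in the second replicate. The same counts were not made over the 10201 genes, so whether this is particular to the members is not known. The median member stood at log2(TMM CPM + 1) of 0 in both 24 hpf GFP-positive libraries, at 2.97 and 2.60 at 48 hpf and at 5.01 and 5.36 at 72 hpf. Over the 10201 genes the same median moved only between 4.72 and 4.98 in these 6 libraries. Taking the rise from 1 replicate in place of 2 at one stage left 135 to 166 of the 200 members in the set, 135 of them when the first 72 hpf replicate was left out.

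**Figure D1:**
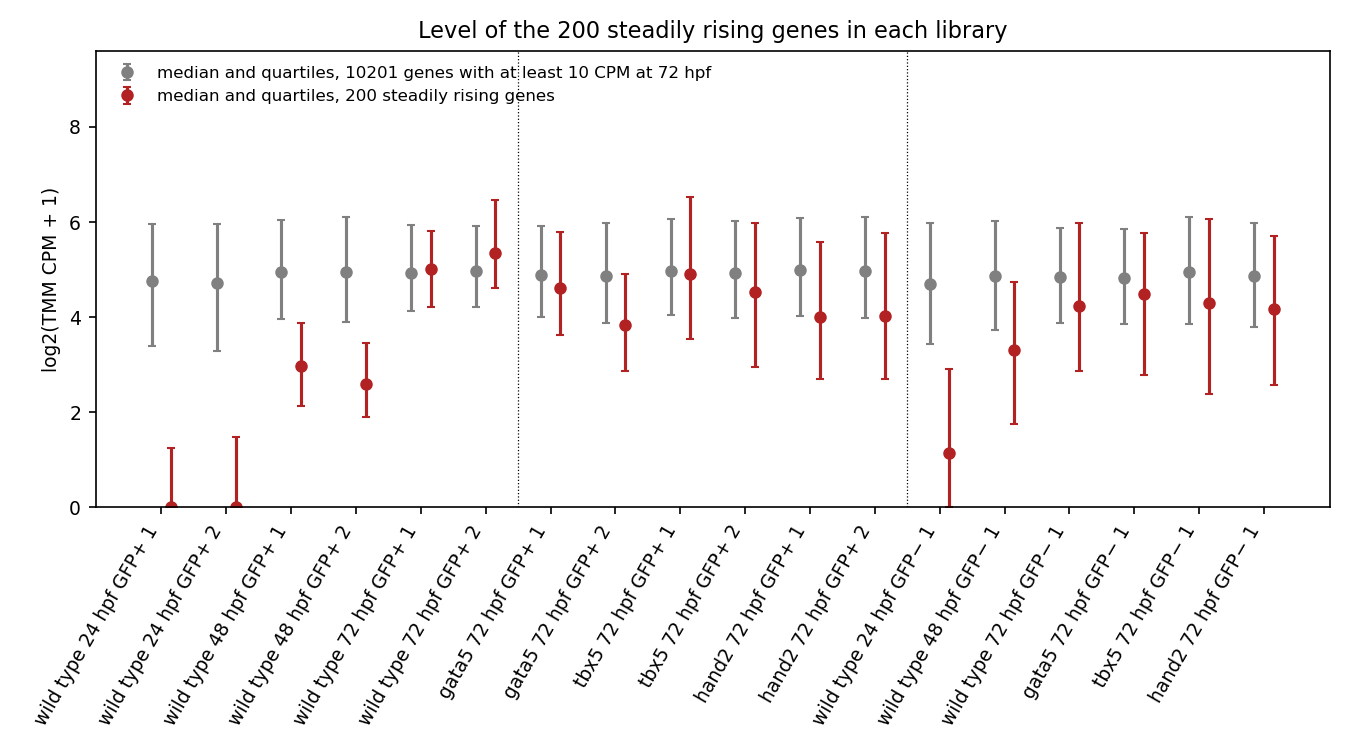
Median and quartiles of log2(TMM CPM + 1) in each of the 18 libraries for the 200 steadily rising genes (red) and for the 10201 genes with at least 10 CPM at 72 hpf (grey). The red medians start at 0 in both wild-type GFP-positive libraries at 24 hpf and reach 5.01 and 5.36 at 72 hpf, and in the wild-type GFP-negative libraries they go from 1.15 to 3.30 and 4.24, while the grey medians stay between 4.71 and 4.99 in all libraries.

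Among the members on a list, the largest groups were of liver and plasma, cartilage and photoreceptor genes. Of the 42 gene lists examined, 24 held at least 1 member. On at least 1 list were 96 of the 200 members, so the lists describe only those. Members were 200 of the 10201 genes with the CPM minimum, and each list is counted over its own genes with that minimum. The liver and plasma protein list held 23 of 51, the cartilage, bone and fibroblast list 12 of 39 and the complement and coagulation list 11 of 29. The photoreceptor and retinal pigment list held 10 of 33 and the apolipoprotein and lipid droplet list 9 of 25. The liver, complement and apolipoprotein lists overlap. The cardiac sarcomere and natriuretic peptide list held none. Of its 33 genes that met the CPM minimum, all 33 had a higher rlog mean at 48 than at 24 hpf and 9 had a higher one at 72 than at 48 hpf. TNNC1, a troponin C gene of slow and cardiac muscle, came nearest, at rank 319. The lists for xanthophores, erythroid cells, endothelium, the cell cycle, cytosolic ribosomal proteins and oxidative phosphorylation held no member. They had 28, 16, 15, 60, 79 and 61 genes with the CPM minimum. At a share of 200 in 10201, lists of this size, the cardiac one included, hold few members or none. Nothing is therefore read from a count of 0.

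A first question outside the selection was whether the steadily rising genes belong to the GFP-positive or to the GFP-negative cells. It was tested in the 9 libraries of gata5, tbx5 and hand2, none of which was used to choose the genes. The set split almost evenly. At an adjusted p under 0.05, 144 of 200 members differed between the fractions, 71 higher and 73 lower in GFP-positive cells, and 56 did not pass (edgeR quasi-likelihood test with genotype as a covariate and Benjamini-Hochberg adjustment over 25307 genes). Over all genes tested 25.4% differed, 13.1% higher and 12.3% lower. Among the 10201 genes with the same CPM minimum these shares were 44.1%, 28.1% and 16.01%. The median log2 fold of the members was −0.12, beside −0.09 for all genes tested, but single members ran from −4.35 to 7.27. Below, the fractions are said to overlap or not over these 9 genotype libraries alone.

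The wild type at 72 hpf, used by the selection, gave a median log2 difference of 2.58 for the members called higher, −0.75 for those called lower and 0.25 for the rest. Its 2 replicates did not rank the groups alike: 20 of the 71 higher members and 60 of the 73 lower members were higher in the second replicate than in the first. The share of all genes with that order was not counted.

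**Figure D2:**
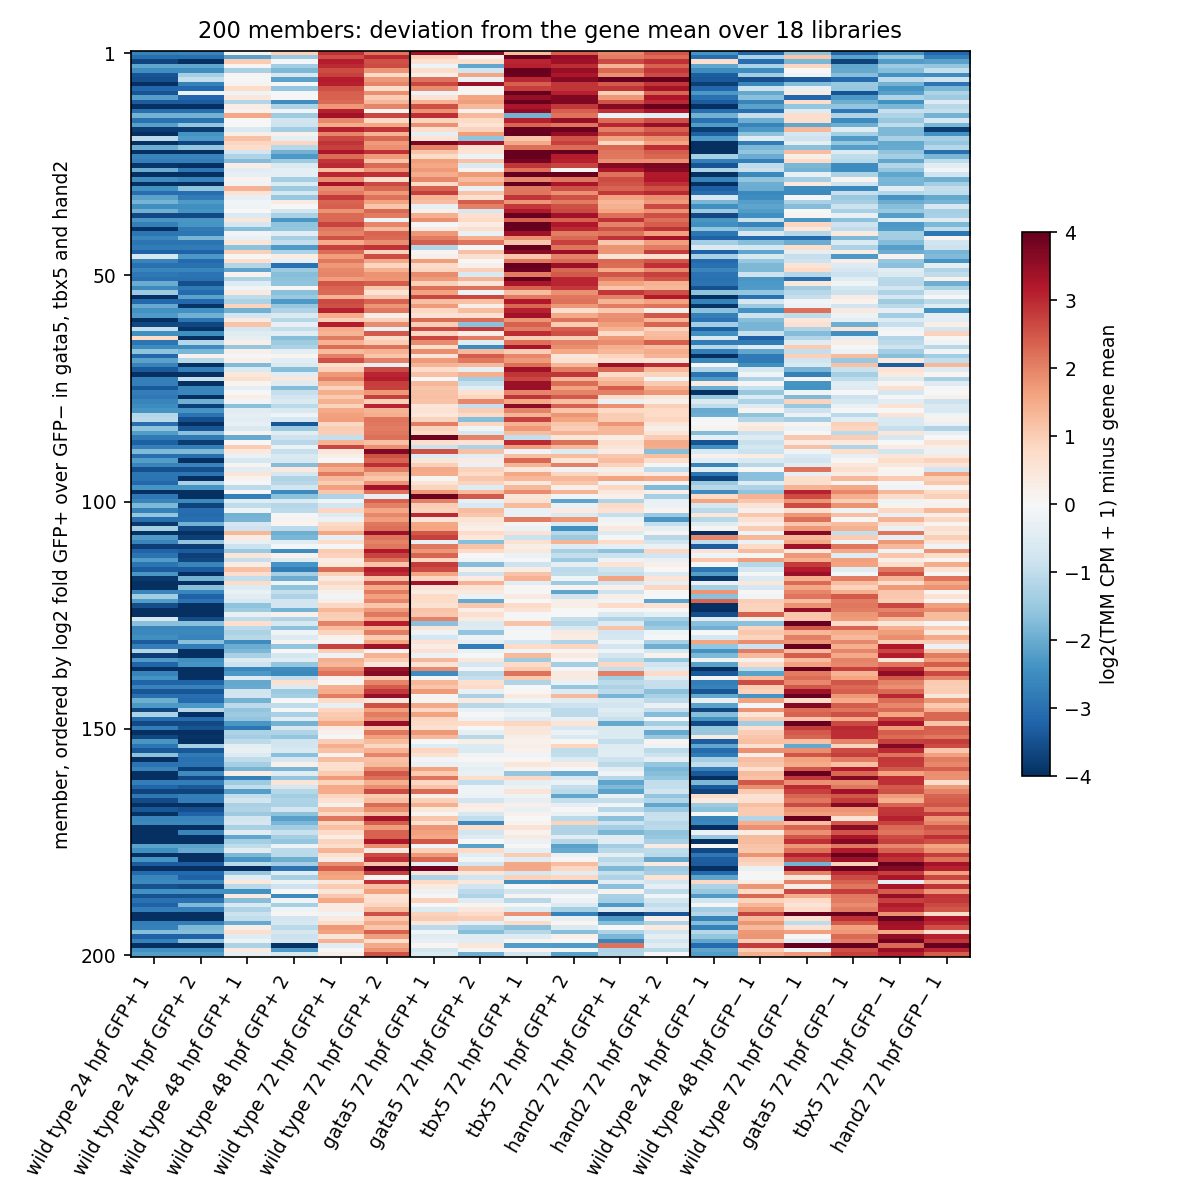
Each row is 1 of the 200 members, ordered from the highest to the lowest log2 fold of GFP-positive over GFP-negative in gata5, tbx5 and hand2, and each column 1 library. Colour is log2(TMM CPM + 1) minus the mean of the gene over the 18 libraries. The upper rows are higher in the GFP-positive than in the GFP-negative libraries of gata5, tbx5 and hand2, and the lower rows are higher in the GFP-negative ones, as follows from their order.

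Liver and plasma proteins made the largest group and the top of the ranking. All 23 of these members except RBP4 had a positive GFP-positive log2 fold, 18 of them passed the test and 0 were lower, with a median of 4.29. The whole list of 84 IDs gave 42 higher and 2 lower of 77 tested. The 2 members with the highest scores were serpina1l and serpina1, adjacent genes of the alpha-1-antitrypsin family, the main protease inhibitor of plasma. For serpina1l the wild-type GFP-positive libraries measured 0 and 0 TMM CPM at 24 hpf, 11.7 and 4.83 by 48 hpf and finally 208 and 163 by 72 hpf. At 72 hpf it was at 613 and 377 in tbx5, 94.1 and 115 in hand2 and 46.0 and 30.4 in gata5. The GFP-negative libraries gave 6.02 in tbx5, 1.67 in hand2 and 13.8 in gata5, so the fractions did not overlap, although the 72 hpf wild-type library without GFP, with 50.04, lay above both gata5 GFP-positive ones, and the log2 fold was 4.30 ± 1.23 (SE) with edgeR adjusted p = 0.0470. serpina1 had 0 and 0 TMM CPM at 24 hpf, 8.05 and 4.28 by 48 hpf and finally 115 and 99.9 by 72 hpf, and 323 and 207 in tbx5, 55.4 and 70.7 in hand2 and 21.03 and 25.4 in gata5. Its GFP-negative libraries had 2.99 in tbx5, 0 in hand2 and 8.86 in gata5, again below every GFP-positive one, but the log2 fold of 4.60 ± 1.64 (SE) did not pass (edgeR adjusted p = 0.105). Related neighbouring genes can share reads, and their sequences were not compared here.

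Of the 9 members on the apolipoprotein and lipid droplet list, 7 were called higher and 0 lower. Most of them, though not MTTP, are apolipoproteins, which carry lipids in plasma. The whole list gave 24 and 0 of 49. apoa1b, a main protein of high-density lipoprotein, went through 0.356 and 3.56 TMM CPM at 24 hpf, 76.7 and 56.4 by 48 hpf and finally 854 and 526 by 72 hpf. It stood at 1817 and 825 in tbx5, 482 and 647 in hand2 and 146 and 264 in gata5, against 22.6 in tbx5, 31.9 in hand2 and 46.6 in gata5 in GFP-negative cells. No GFP-positive value fell to the GFP-negative range, and the log2 fold was 3.95 ± 0.78 (SE) (edgeR adjusted p = 0.00668). apoa2, also of high-density lipoprotein, had 0 and 1.83 TMM CPM at 24 hpf, 44.1 and 43.4 by 48 hpf and finally 465 and 429 by 72 hpf, then 1057 and 957 in tbx5, 258 and 518 in hand2 and 159 and 184 in gata5, and 12.6 in tbx5, 31.7 in hand2 and 22.98 in gata5 without GFP. Among the 3 genotypes the tbx5 libraries were highest and the gata5 libraries lowest for both genes. apoc1, carried on triglyceride-rich particles and made by macrophages as well as liver, had 0.285 and 0 TMM CPM at 24 hpf, 32.1 and 14.4 by 48 hpf and finally 143 and 93.7 by 72 hpf, then 133 and 170.0 in tbx5, 101 and 123 in hand2 and 23.7 and 25.8 in gata5, while its GFP-negative libraries had 2.48 in tbx5, 2.72 in hand2 and 0.239 in gata5. It had the second largest fold among the members on any list, 5.95 ± 0.34 (SE) with edgeR adjusted p = 3.51e-08, although the call was lost in a fit to all 18 libraries (adjusted p = 0.0895). Wild-type GFP-negative libraries had 25.6 at 24 hpf, above the GFP-positive ones of that stage, then 0.954 and 3.57.

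Clotting, fibrinolysis and complement proteins followed the same course. Of 11 members of that list 9 were called higher and 0 lower, where the whole list gave 26 and 1 of 60 tested. PLG, plasminogen, which dissolves clots once activated, measured 0 and 0 TMM CPM at 24 hpf, 0.840 and 1.92 by 48 hpf and finally 48.1 and 64.1 by 72 hpf. In the genotypes it was at 218 and 91.4 in tbx5, 32.5 and 38.2 in hand2 and 14.7 and 8.20 in gata5, and without GFP at 1.87 in tbx5, 0.209 in hand2 and 0.838 in gata5. The 2 fractions did not overlap, and the log2 fold was 5.98 ± 0.65 (SE) (edgeR adjusted p = 3.33e-05). FGB and FGG encode chains of fibrinogen, the clot protein. FGB had 0 and 0 TMM CPM at 24 hpf, 3.43 and 0.768 by 48 hpf and finally 47.3 and 23.9 by 72 hpf, then 232 and 130.3 in tbx5, 55.5 and 78.3 in hand2 and 25.2 and 30.7 in gata5, with 0.841 in tbx5, 5.85 in hand2 and 1.56 in gata5 in GFP-negative cells. FGG had 0 and 0 TMM CPM at 24 hpf, 7.28 and 3.95 by 48 hpf and finally 57.4 and 50.8 by 72 hpf, then 244 and 124 in tbx5, 55.1 and 71.9 in hand2 and 31.9 and 18.5 in gata5, with 1.63 in tbx5, 3.97 in hand2 and 8.98 in gata5 in GFP-negative cells. The fractions did not overlap in either gene, and the tbx5 libraries were the highest of all 18 for both. c3a.3, a form of the central complement protein C3, had a log2 fold of 5.39 ± 0.88 (SE) (edgeR adjusted p = 0.00139), and VTN, the adhesive plasma protein vitronectin, of 5.79 ± 1.08 (SE) (edgeR adjusted p = 0.00163).

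Genes of sugar metabolism were divided. Of 5 members on the glycolysis and gluconeogenesis list 2 were called higher and 2 lower, where the whole list gave 29 higher and 4 lower of 85. PCK1, which starts gluconeogenesis, had 0 and 0 TMM CPM at 24 hpf, 2.31 and 1.54 by 48 hpf and finally 24.4 and 26.3 by 72 hpf. Its genotype levels were 181 and 64.7 in tbx5, 31.8 and 44.0 in hand2 and 24.7 and 19.5 in gata5, with 2.76 in tbx5, 7.94 in hand2 and 4.67 in gata5 in the GFP-negative libraries, and the log2 fold was 3.22 ± 0.68 (SE) (edgeR adjusted p = 0.00586). fbp1b, a fructose-bisphosphatase of the same pathway, had 1.92 and 0 TMM CPM at 24 hpf, 7.07 and 2.74 by 48 hpf and finally 64.3 and 60.2 by 72 hpf and a fold of 3.11 ± 0.68 (SE) (edgeR adjusted p = 0.00663). eno2, an enolase known from neurons in mammals, and ALDOC, an aldolase of the brain, were called lower, with folds of −3.53 ± 0.47 (SE) (edgeR adjusted p = 6.49e-05) and −0.97 ± 0.25 (SE) (edgeR adjusted p = 0.00940). FBP2, related to fbp1b, went the other way in sign but did not pass, at 5.96 and 0.430 in tbx5, 1.17 and 0 in hand2 and 0 and 1.0997 in gata5 against 3.36 in tbx5, 1.98 in hand2 and 4.43 in gata5 without GFP (log2 fold −1.60 ± 1.59 (SE), edgeR adjusted p = 0.525). RBP4, the plasma carrier of retinol, was the liver-list member with the fold nearest 0 and did not pass: 0 and 0 TMM CPM at 24 hpf, 35.8 and 5.49 by 48 hpf and finally 80.4 and 169 by 72 hpf, 140.3 and 96.9 in tbx5, 49.5 and 42.4 in hand2 and 126 and 90.0 in gata5, and 91.7 in tbx5, 62.9 in hand2 and 142 in gata5 without GFP, with a log2 fold of −0.02 ± 0.24 (SE) (edgeR adjusted p = 0.966).

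Of the 6 defining liver markers, apoa2, FGB and serpina1 are members. fabp10a, the fatty acid binding protein of hepatocytes, is not: it had 0 counts in both 48 hpf GFP-positive libraries and 65.8 and 25.5 TMM CPM at 72 hpf. TTR, transthyretin, was also at 0 in both 48 hpf libraries, and at 0 in the second 72 hpf one. The 23 liver-list members already summed to 531 and 298 TMM CPM in those 48 hpf libraries, and which cells gave these reads was not tested. The whole liver list summed to 274 to 397 TMM CPM at 24 hpf, 1671 to 1808 at 48 hpf and 4666 to 6325 at 72 hpf in wild-type GFP-positive libraries, and to 2244 to 14664 TMM CPM over the 6 GFP-positive genotype libraries and 481 to 835 over the 3 GFP-negative ones. Their part in the member values was not tested. In bulk libraries fewer cells of a type and less RNA per cell cannot be told apart.

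Macrophage genes were fewer, and those on the leukocyte list shared a direction between the fractions but not their other courses. Their log2 folds of gata5 over tbx5 ran from −2.59 to 0.23. Without GFP their log2 changes from 24 to 72 hpf in the wild type ran from −2.54 to 2.83. Of these genes apoc1 is also counted with the liver members. The 4 leukocyte-list members, apoc1 among them, were all called higher in GFP-positive cells, with a median log2 fold of 4.80, and the whole list gave 35 higher and 2 lower of 55. marco, a scavenger receptor by which macrophages bind bacteria, had 0 and 0 TMM CPM at 24 hpf, 10.9 and 4.06 by 48 hpf and finally 33.0 and 25.7 by 72 hpf. It measured 34.8 and 28.4 in tbx5, 57.0 and 65.8 in hand2 and 55.4 and 16.9 in gata5, against 2.71 in tbx5, 3.03 in hand2 and 3.35 in gata5 in GFP-negative cells. ccl34b.1, a chemokine gene, had 0 and 0 TMM CPM at 24 hpf, 13.7 and 2.03 by 48 hpf and finally 50.4 and 13.5 by 72 hpf, then 58.5 and 63.1 in tbx5, 62.8 and 87.0 in hand2 and 31.9 and 8.50 in gata5, against 0.654 in tbx5, 1.46 in hand2 and 2.03 in gata5. Neither gene overlapped between the fractions, and the folds were 3.90 ± 0.43 (SE) (edgeR adjusted p = 1.05e-05) and 5.24 ± 0.73 (SE) (edgeR adjusted p = 3.83e-04). For marco the hand2 libraries were the highest, and for ccl34b.1 they overlapped those of tbx5. ctsl.1, which encodes a lysosomal cathepsin L, was also highest in hand2: 0 and 0 TMM CPM at 24 hpf, 20.1 and 6.31 by 48 hpf and finally 55.9 and 64.8 by 72 hpf, then 159 and 119.8 in tbx5, 219 and 315 in hand2 and 101 and 41.1 in gata5, and 3.83 in tbx5, 6.90 in hand2 and 4.79 in gata5 in GFP-negative libraries, a fold of 4.93 ± 0.42 (SE) (edgeR adjusted p = 1.95e-06). mhc2d4b, a class II antigen-presenting molecule, passed less firmly (log2 fold 3.38 ± 1.01 (SE), edgeR adjusted p = 0.0387). Of 7 IDs matched to the defining leukocyte markers, 5 had reads in both wild-type GFP-positive libraries at 72 hpf, and lyz and an MPEG1 copy in only 1 of them. The whole list summed to 1501 to 2081 TMM CPM at 24 hpf, 608 to 1702 at 48 hpf and 1872 to 3308 at 72 hpf in the wild type, and to 1443 to 6855 TMM CPM over the 6 GFP-positive genotype libraries and 514 to 852 over the 3 GFP-negative ones; their part in these results was not tested.

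The largest fold of all 200 belonged to zgc:92161, for which the table gives no further name. It had 0.356 and 0.418 TMM CPM at 24 hpf, 8.54 and 15.7 by 48 hpf and finally 65.6 and 38.5 by 72 hpf, then 20.2 and 45.2 in tbx5, 33.4 and 49.5 in hand2 and 91.6 and 104 in gata5, and 0.747 in tbx5, 0 in hand2 and 0 in gata5 in GFP-negative libraries. The gata5 libraries were the highest of all 18 for this gene, unlike the liver genes. The log2 fold was 7.27 ± 0.91 (SE) (edgeR adjusted p = 2.52e-04). gpx3, a secreted glutathione peroxidase, had 0.142 and 3.14 TMM CPM at 24 hpf, 8.12 and 5.49 by 48 hpf and finally 45.9 and 38.1 by 72 hpf in the wild type. All 6 genotype libraries were above that, at 76.0 and 78.4 in tbx5, 71.3 and 164 in hand2 and 117 and 117 in gata5, and the fold between fractions was 2.85 ± 0.30 (SE) (edgeR adjusted p = 6.35e-06). SQSTM1, the autophagy receptor p62, and tnfsf12, a cytokine of the tumour necrosis factor family, passed in the same direction, with folds of 2.18 ± 0.29 (SE) (edgeR adjusted p = 5.08e-05) and 2.83 ± 0.39 (SE) (edgeR adjusted p = 7.10e-05).

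Muscle members were of the slow and calcium-handling kind. Of 5 on the skeletal muscle list, 4 were called higher in GFP-positive cells and 0 lower, with a median log2 fold of 2.12, and the whole list gave 31 and 0 of 73. smyhc1 and smyhc2 are adjacent genes for slow myosin heavy chains, used by the superficial slow fibres of the trunk. smyhc1 had 14.0 and 0 TMM CPM at 24 hpf, 107 and 68.4 by 48 hpf and finally 266 and 677 by 72 hpf. In the genotypes it was at 1087 and 472 in tbx5, 270.4 and 204 in hand2 and 247 and 51.5 in gata5, and at 106 in tbx5, 69.0 in hand2 and 71.0 in gata5 in the GFP-negative libraries. The second gata5 GFP-positive library lay below all 3 GFP-negative values, and the other 5 lay above them (log2 fold 2.004 ± 0.57 (SE), edgeR adjusted p = 0.0310). smyhc2 had 2.28 and 4.08 TMM CPM at 24 hpf, 21.5 and 9.49 by 48 hpf and finally 63.9 and 211 by 72 hpf, then 356 and 138 in tbx5, 160.1 and 83.1 in hand2 and 55.0 and 24.99 in gata5, against 49.4 in tbx5, 22.8 in hand2 and 17.2 in gata5, and pvalb4, a parvalbumin that buffers calcium in fast-relaxing muscle, 0 and 0 TMM CPM at 24 hpf, 21.8 and 11.4 by 48 hpf and finally 55.9 and 138 by 72 hpf, then 123 and 122 in tbx5, 28.6 and 30.3 in hand2 and 37.4 and 45.5 in gata5, against 21.2 in tbx5, 17.0 in hand2 and 5.75 in gata5. Their folds were 2.12 ± 0.43 (SE) (edgeR adjusted p = 0.00329) and 2.12 ± 0.37 (SE) (edgeR adjusted p = 4.87e-04). The second wild-type 72 hpf library was the higher one for all 3 genes by more than 2-fold. Whole-list sums were 1070.1 to 1095 TMM CPM at 24 hpf, 8009 to 8838 at 48 hpf and 6496 to 20169 at 72 hpf in wild-type GFP-positive libraries, and 6084 to 11449 TMM CPM over the 6 GFP-positive genotype libraries and 2849 to 6276 over the 3 GFP-negative ones, and their part in these folds was not tested.

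Cartilage matrix genes, selected for their rise in wild-type GFP-positive cells, were far higher in GFP-negative cells in the genotype libraries. All 12 members on that list were called lower in the GFP-positive fraction, with a median log2 fold of −2.60, where the whole list gave 0 higher and 37 lower of 51. COL2A1, the main collagen of cartilage, had 50.9 and 24.5 TMM CPM at 24 hpf, 218 and 364 by 48 hpf and finally 1133 and 4729.9 by 72 hpf. In the genotypes it stood at 1184 and 689.6 in tbx5, 678 and 317 in hand2 and 2676 and 646 in gata5, and in the GFP-negative libraries at 5551 in tbx5, 6968 in hand2 and 8543 in gata5. Every GFP-positive value of the genotypes lay below every GFP-negative one, with a fold of −2.80 ± 0.46 (SE) (edgeR adjusted p = 0.00142). COL11A2, a minor fibrillar collagen that joins it, had 0 and 2.04 TMM CPM at 24 hpf, 43.8 and 71.998 by 48 hpf and finally 241 and 940.5 by 72 hpf, then 312 and 128 in tbx5, 119.5 and 71.7 in hand2 and 507 and 115 in gata5, against 1326 in tbx5, 1047 in hand2 and 2509 in gata5 (log2 fold −2.88 ± 0.44 (SE), edgeR adjusted p = 8.17e-04). The first gata5 library was several times the second for both collagens.

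Aggrecan and epiphycan, proteoglycans of the same matrix, had the highest scores among the matrix genes. acanb, an aggrecan gene, had 0 and 0 TMM CPM at 24 hpf, 1.82 and 4.88 by 48 hpf and finally 35.1 and 79.3 by 72 hpf. Genotype levels were 17.6 and 5.10 in tbx5, 1.92 and 6.36 in hand2 and 60.9 and 10.7 in gata5, against 74.7 in tbx5, 49.9 in hand2 and 132 in gata5 without GFP. epyc, the epiphycan gene, had 0.0712 and 0 TMM CPM at 24 hpf, 10.9 and 9.22 by 48 hpf and finally 55.2 and 281 by 72 hpf, then 24.6 and 12.7 in tbx5, 21.5 and 11.1 in hand2 and 168 and 29.4 in gata5, against 199 in tbx5, 175 in hand2 and 377 in gata5. At 72 hpf the second wild-type replicate was more than 2-fold above the first for both, and in gata5 the first replicate was the higher. The folds were −2.62 ± 0.63 (SE) (edgeR adjusted p = 0.0142) and −2.83 ± 0.53 (SE) (edgeR adjusted p = 0.00417). POSTN, periostin, a matrix protein of fibroblasts, periosteum and heart valves, had 0 and 0 TMM CPM at 24 hpf, 5.04 and 3.40 by 48 hpf and finally 39.6 and 52.3 by 72 hpf, then 23.1 and 15.4 in tbx5, 14.9 and 15.2 in hand2 and 35.03 and 18.4 in gata5, against 63.8 in tbx5, 59.0 in hand2 and 66.4 in gata5. It had the smallest fold of the 12, −1.53 ± 0.27 (SE) (edgeR adjusted p = 6.88e-04).

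COL10A1, the collagen of mature cartilage and early bone, differed most between the fractions among the matrix genes. It had 0 and 0 TMM CPM at 24 hpf, 6.44 and 0.165 by 48 hpf and finally 12.4 and 49.6 by 72 hpf in the wild type, then 2.75 and 2.70 in tbx5, 78.7 and 11.9 in hand2 and 17.9 and 23.5 in gata5, and 85.1 in tbx5, 285 in hand2 and 356 in gata5 without GFP. The first hand2 library was the highest and the tbx5 libraries the lowest of the genotypes, all below the GFP-negative values, and the fold was −3.84 ± 0.58 (SE) (edgeR adjusted p = 0.00143). fgfbp2b, a binding protein for fibroblast growth factors, and the protease genes PRSS35 and ADAMTS15 also passed in this direction, with folds of −2.78, −2.79 and −3.18. Summed over the 12 members, wild-type GFP-positive libraries gave 92.2 and 52.5 TMM CPM at 24 hpf, 459 and 628 by 48 hpf and finally 2351 and 8499 by 72 hpf. The 3 wild-type GFP-negative libraries gave 773, 3999 and 10408, higher at each stage. The whole list summed to 2749 to 10289 TMM CPM over the 6 GFP-positive genotype libraries and 24407 to 34823 over the 3 GFP-negative ones, and the part of such cells in the GFP-positive rise was not tested.

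Phototransduction genes of cones had no counts in GFP-positive libraries at 24 hpf. All 10 photoreceptor-list members summed to 0 in both 24 hpf GFP-positive libraries, to 35.4 and 59.6 TMM CPM at 48 hpf and to 302 and 807 at 72 hpf. The fold test called 8 of them lower in GFP-positive cells and 0 higher, with a median log2 fold of −2.10, and the whole list gave 4 higher and 26 lower of 85. GNAT2, the cone transducin subunit that passes the signal from opsin to the phosphodiesterase, had 0 and 0 TMM CPM at 24 hpf, 3.85 and 2.14 by 48 hpf and finally 32.2 and 89.8 by 72 hpf. In the genotypes it was at 9.68 and 18.8 in tbx5, 1.21 and 2.32 in hand2 and 7.74 and 2.299 in gata5, against 64.0 in tbx5, 10.24 in hand2 and 26.0 in gata5 in GFP-negative libraries (log2 fold −2.201 ± 0.41 (SE), edgeR adjusted p = 9.54e-04). opn1lw2, a red-sensitive cone opsin, had 0 and 0 TMM CPM at 24 hpf, 1.4002 and 2.305 by 48 hpf and finally 35.6 and 137 by 72 hpf, then 21.04 and 16.8 in tbx5, 1.92 and 3.65 in hand2 and 19.9 and 19.99 in gata5, against 118 in tbx5, 26.1 in hand2 and 74.5 in gata5 (log2 fold −2.46 ± 0.30 (SE), edgeR adjusted p = 2.06e-05). In each background the GFP-positive pair lay below its GFP-negative library for both genes, and the hand2 pair was the lowest for opn1lw2.

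ARR3, the cone arrestin that ends the signal, had 0 and 0 TMM CPM at 24 hpf, 1.89 and 2.09 by 48 hpf and finally 63.2 and 189.7 by 72 hpf, then 34.6 and 15.6 in tbx5, 7.99 and 11.2 in hand2 and 63.9 and 15.2 in gata5, against 141 in tbx5, 52.8 in hand2 and 115 in gata5 (log2 fold −2.03 ± 0.40 (SE), edgeR adjusted p = 0.00290). RCVRN, recoverin, a calcium sensor of photoreceptors (ENSDARG00000019902), had 0 and 0 TMM CPM at 24 hpf, 5.18 and 2.85 by 48 hpf and finally 28.7 and 75.4 by 72 hpf, then 10.24 and 6.39 in tbx5, 4.14 and 2.37 in hand2 and 33.5 and 7.80 in gata5, against 50.1 in tbx5, 20.8 in hand2 and 55.5 in gata5 (log2 fold −2.11 ± 0.43 (SE), edgeR adjusted p = 0.00189). A further member ID bears the symbol RCVRN, at rank 50. rs1a, the retinoschisin gene of the retina, was on no list and had the same pattern, with 0 and 0 TMM CPM at 24 hpf, 2.03 and 5.16 by 48 hpf and finally 26.3 and 56.5 by 72 hpf and a fold of −2.97 ± 0.31 (SE) (edgeR adjusted p = 6.14e-06). six7, a transcription factor of zebrafish photoreceptors, differed in timing: its wild-type GFP-negative libraries had 0.364, 55.8 and 34.02 TMM CPM at 24, 48 and 72 hpf, highest in the middle, and its GFP-positive ones 0 and 0 TMM CPM at 24 hpf, 1.26 and 13.8 by 48 hpf and finally 8.52 and 35.02 by 72 hpf. Of 12 IDs matched to the defining photoreceptor markers, 10 were at 0 counts in both 24 hpf GFP-positive libraries, 5 at 48 hpf and 2 at 72 hpf. Whole-list sums were 145 to 180.1 TMM CPM at 24 hpf, 569 to 667 at 48 hpf and 997 to 1870.4 at 72 hpf in wild-type GFP-positive libraries, and 405 to 689.9 TMM CPM over the 6 GFP-positive genotype libraries and 735 to 1852 over the 3 GFP-negative ones. Their part in the member values was not tested.

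In the genotype libraries synaptic and ion transport genes of neurons were lower in GFP-positive than in GFP-negative cells. All 4 neural-list members were called lower (median −2.70), and the whole list gave 2 higher and 38 lower of 52. In the wild type at 72 hpf these members summed to 94.4 and 138 TMM CPM with GFP and 133 without. SNAP25, of the complex that fuses synaptic vesicles, had 2.92 and 0 TMM CPM at 24 hpf, 8.47 and 10.21 by 48 hpf and finally 37.6 and 45.7 by 72 hpf, then 21.1 and 19.8 in tbx5, 8.82 and 20.2 in hand2 and 18.3 and 21.9 in gata5, against 129.6 in tbx5, 135 in hand2 and 76.4 in gata5 (log2 fold −2.49 ± 0.29 (SE), edgeR adjusted p = 1.57e-05). Its fractions did not overlap in the genotypes, whereas in the wild type at 72 hpf the GFP-negative library, with 42.8, lay between the GFP-positive ones. ano2a, a calcium-activated chloride channel and the member with the lowest fold of all 200, had 0 and 0 TMM CPM at 24 hpf, 2.73 and 2.03 by 48 hpf and finally 4.67 and 26.2 by 72 hpf, then 1.85 and 0.0614 in tbx5, 1.09 and 3.65 in hand2 and 2.2001 and 0.200 in gata5, against 39.7 in tbx5, 24.3 in hand2 and 30.2 in gata5 (log2 fold −4.35 ± 0.83 (SE), edgeR adjusted p = 0.00273). slc12a5a, the chloride exporter that makes GABA inhibitory in mature neurons, sypb, a synaptophysin of synaptic vesicles, and atp1a3b, a sodium pump subunit of neurons, had folds of −3.69, −2.70 and −2.70, all past the threshold. The neural list summed to 280.0 to 400.3 TMM CPM at 24 hpf, 2009 to 2049.8 at 48 hpf and 2183 to 2374 at 72 hpf in wild-type GFP-positive libraries, and to 1114 to 2072 TMM CPM over the 6 GFP-positive genotype libraries and 4208 to 9135 over the 3 GFP-negative ones, and its part was not tested.

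**Figure D3:**
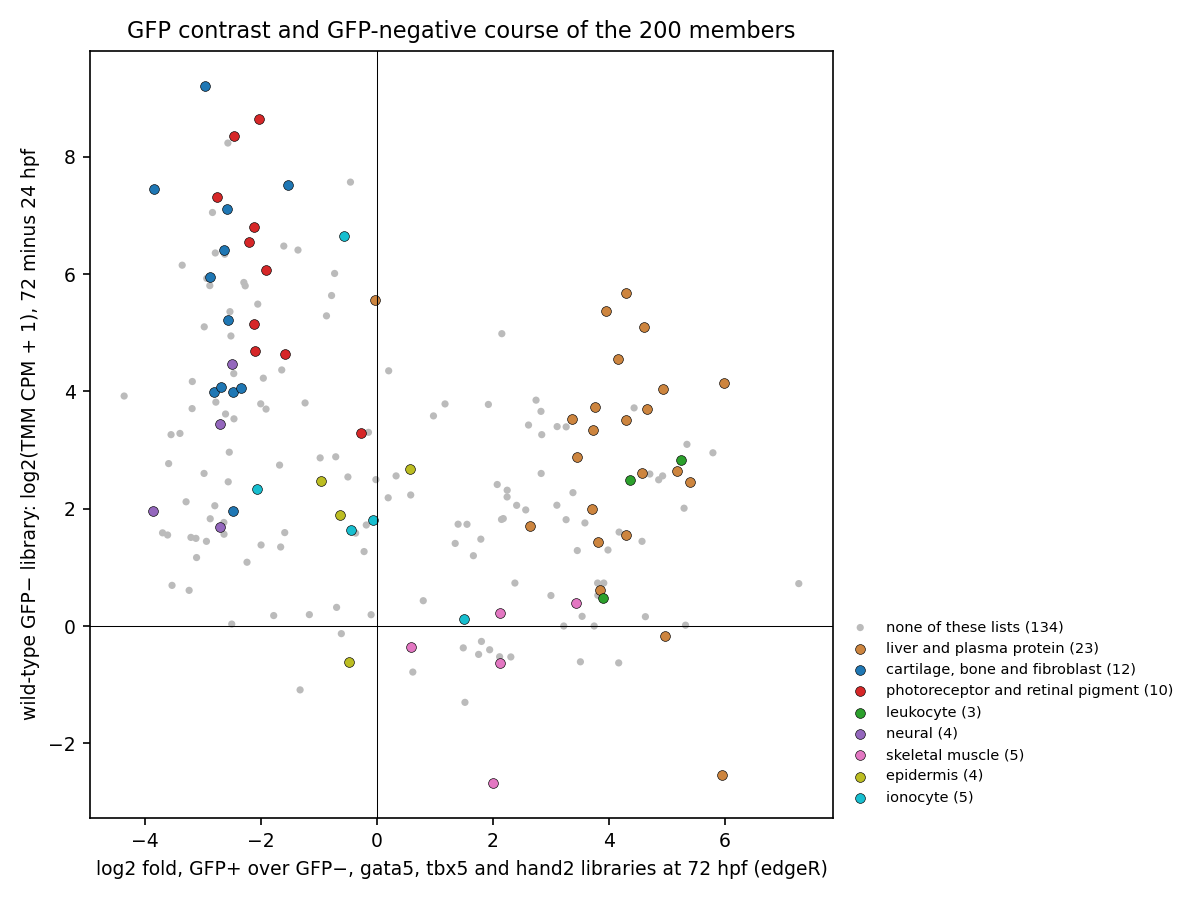
Each point is 1 member. The x axis is the edgeR log2 fold of GFP-positive over GFP-negative libraries in gata5, tbx5 and hand2, and the y axis the change of log2(TMM CPM + 1) in wild-type GFP-negative libraries from 24 to 72 hpf. Colour marks the list, and apoc1, on 2 lists, is drawn with the liver genes. Cartilage genes lie at the upper left, between −3.84 and −1.53 on the x axis, liver genes on the right except RBP4 at −0.02, and muscle genes on the right between −2.68 and 0.39 on the y axis.

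Skin members did not pass in either direction between the fractions, where the whole epidermis list gave 9 higher and 1 lower of 45. The 4 epidermal keratins krt5, krt15, krt91 and krt97 had log2 folds from −0.95 to 0.57, with a median of −0.55 beside 0.49 for the whole list. krt5, a keratin of basal epidermis, had 14.9 and 8.16 TMM CPM at 24 hpf, 169 and 132 by 48 hpf and finally 231 and 790.3 by 72 hpf. It was at 100.1 and 61.8 in tbx5, 66.2 and 71.5 in hand2 and 617 and 123 in gata5, and at 263 in tbx5, 197 in hand2 and 84.9 in gata5 without GFP (log2 fold −0.63 ± 0.84 (SE), edgeR adjusted p = 0.658). krt97 had 1.78 and 0 TMM CPM at 24 hpf, 15.6 and 2.74 by 48 hpf and finally 9.25 and 58.0 by 72 hpf, then 6.27 and 3.81 in tbx5, 11.7 and 5.18 in hand2 and 86.9 and 16.7 in gata5, against 9.20 in tbx5, 25.6 in hand2 and 25.7 in gata5 (log2 fold −0.47 ± 0.60 (SE), edgeR adjusted p = 0.630). In both genes the first gata5 library and the second wild-type 72 hpf library stood above the other GFP-positive libraries at 72 hpf. zgc:136930 and si:dkey-183i3.5, unnamed genes at ranks 4 and 19, had a similar spread across libraries. zgc:136930 measured 0 and 0 TMM CPM at 24 hpf, 21.6 and 0.439 by 48 hpf and finally 46.0 and 87.5 by 72 hpf, then 11.3 and 3.93 in tbx5, 4.77 and 9.13 in hand2 and 60.5 and 10.4 in gata5, against 42.6 in tbx5, 13.8 in hand2 and 6.22 in gata5. si:dkey-183i3.5 measured 0 and 0 TMM CPM at 24 hpf, 37.8 and 2.96 by 48 hpf and finally 45.1 and 168 by 72 hpf, then 21.7 and 5.96 in tbx5, 9.45 and 15.5 in hand2 and 84.3 and 25.9 in gata5, against 66.4 in tbx5, 20.2 in hand2 and 6.82 in gata5. The whole epidermis list summed to 2017 to 2307 TMM CPM at 24 hpf, 9648 to 10266 at 48 hpf and 6922 to 14193 at 72 hpf in wild-type GFP-positive libraries and to 15994 to 45613 in gata5, 5275 to 6397 in tbx5 and 5400.4 to 5998 in hand2, and its part in these values was not tested.

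Of 5 members on the ionocyte list, of skin cells that transport ions, 1 was called higher and 1 lower, and the whole list gave 9 higher and 3 lower of 34. ATP1B1, a beta subunit of the sodium pump on the ionocyte list, had 2.78 and 0 TMM CPM at 24 hpf, 3.15 and 7.90 by 48 hpf and finally 10.8 and 21.1 by 72 hpf, and then 37.8 and 24.6 in tbx5, 30.8 and 10.1 in hand2 and 416 and 151 in gata5, against 44.5 in tbx5, 52.0 in hand2 and 75.4 in gata5. Both gata5 libraries were above all others with GFP, and the fold between fractions did not pass (log2 fold −0.06 ± 0.67 (SE), edgeR adjusted p = 0.964).

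The transcription factor list held 4 members among its 445 genes with the CPM minimum, beside 200 of 10201 genes in all. Regulators on no list were not counted. Of these 4 members 1 was called higher and 2 lower, where the whole list gave 84 and 214 of 980. The higher one, nfkbiaa, encodes an inhibitor of NF-kappaB that the list matched by its name (log2 fold 3.54 ± 0.28 (SE), edgeR adjusted p = 6.02e-07). egr4, an early growth response factor induced by activity in neurons, was called lower (log2 fold −2.497 ± 0.31 (SE), edgeR adjusted p = 2.54e-05), as was six7 (log2 fold −2.098 ± 0.38 (SE), edgeR adjusted p = 7.08e-04). PER1, a light- and clock-regulated repressor, had 1.28 and 0 TMM CPM at 24 hpf, 18.2 and 6.48 by 48 hpf and finally 41.2 and 35.9 by 72 hpf, then 42.7 and 42.6 in tbx5, 52.0 and 48.8 in hand2 and 17.7 and 35.6 in gata5, against 34.4 in tbx5, 32.5 in hand2 and 42.9 in gata5. The pair lay above its GFP-negative library in tbx5 and hand2 and below it in gata5 (log2 fold 0.21 ± 0.30 (SE), edgeR adjusted p = 0.681). VIL1, villin of the brush border in gut, stood at 11.5 and 5.04 in tbx5, 7.99 and 0.493 in hand2 and 8.54 and 2.60 in gata5, against 3.64 in tbx5, 4.49 in hand2 and 13.5 in gata5, with a fold of −0.01 ± 0.84 (SE) (edgeR adjusted p = 0.995).

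Most of the members also rose in cells without GFP. From 24 to 72 hpf 158 of 200 members went up at least 2-fold in the wild-type GFP-negative libraries and 4 fell as far, against 20.05% and 11.1% of the 10201 genes with the same CPM minimum. By interval 120 rose from 24 to 48 hpf against 17.4%, 108 from 48 to 72 hpf against 11.9%, and 60 in both against 2.09%. There is 1 GFP-negative library per stage, so no test is possible, and the counts use differences of log2(TMM CPM + 1). The median change from 24 to 72 hpf was 2.52 for the members and 0.02 for the 10201 genes. With the gata5, tbx5 or hand2 GFP-negative library in place of the wild-type one at 72 hpf, 147, 147 and 149 members rose.

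The course without GFP is given by group. Of members called lower in GFP-positive cells 69 of 73 rose 2-fold, with a median change of 3.92, of those called higher 46 of 71, with a median of 1.81, and of the rest 43 of 56, with a median of 2.49. All 12 cartilage, all 10 photoreceptor and all 4 neural members rose, as did 20 of 23 liver members, 2 of 4 leukocyte members and 0 of 5 muscle members. COL2A1 had 322, 2209 and 5135 TMM CPM at 24, 48 and 72 hpf without GFP, COL11A2 20.5, 534 and 1331, GNAT2 0.971, 0.572 and 183.1 and ARR3 0, 7.44 and 398. serpina1l had 0, 6.20 and 50.04 and apoa1b 1.70, 20.9 and 111. In the wild type both of these liver-list genes had the order of stages seen with GFP. The cone genes GNAT2 and ARR3 gained most in the second interval. The size of the liver rise depended on the library taken at 72 hpf. The 23 liver members summed to 216, 127 and 1007 TMM CPM at 24, 48 and 72 hpf in the wild type without GFP. In the gata5, tbx5 and hand2 GFP-negative libraries at 72 hpf they summed to 396, 222 and 253. smyhc1 went the other way in the wild type with 125, 94.6 and 18.7, and marco stayed near 0 with 0, 0.382 and 0.397. The muscle fall also depended on the library taken at 72 hpf. The 5 muscle members summed to 154, 143 and 40.2 TMM CPM by stage in the wild type without GFP. In the gata5, tbx5 and hand2 GFP-negative libraries at 72 hpf the sums were 113, 211 and 144.

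Set against the wild-type GFP-negative library of the same stage, the counts on either side varied with the stage. At 24 hpf 10 members were at least 2-fold higher with GFP and 82 lower, against 12.5% and 15.6% of the 10201 genes. At 48 hpf the counts were 51 and 82, against 22.1% and 18.4%, and at 72 hpf 91 and 40, against 20.9% and 12.1%. The selection used the GFP-positive libraries of each pair, so nothing is read from their order.

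**Figure D4:**
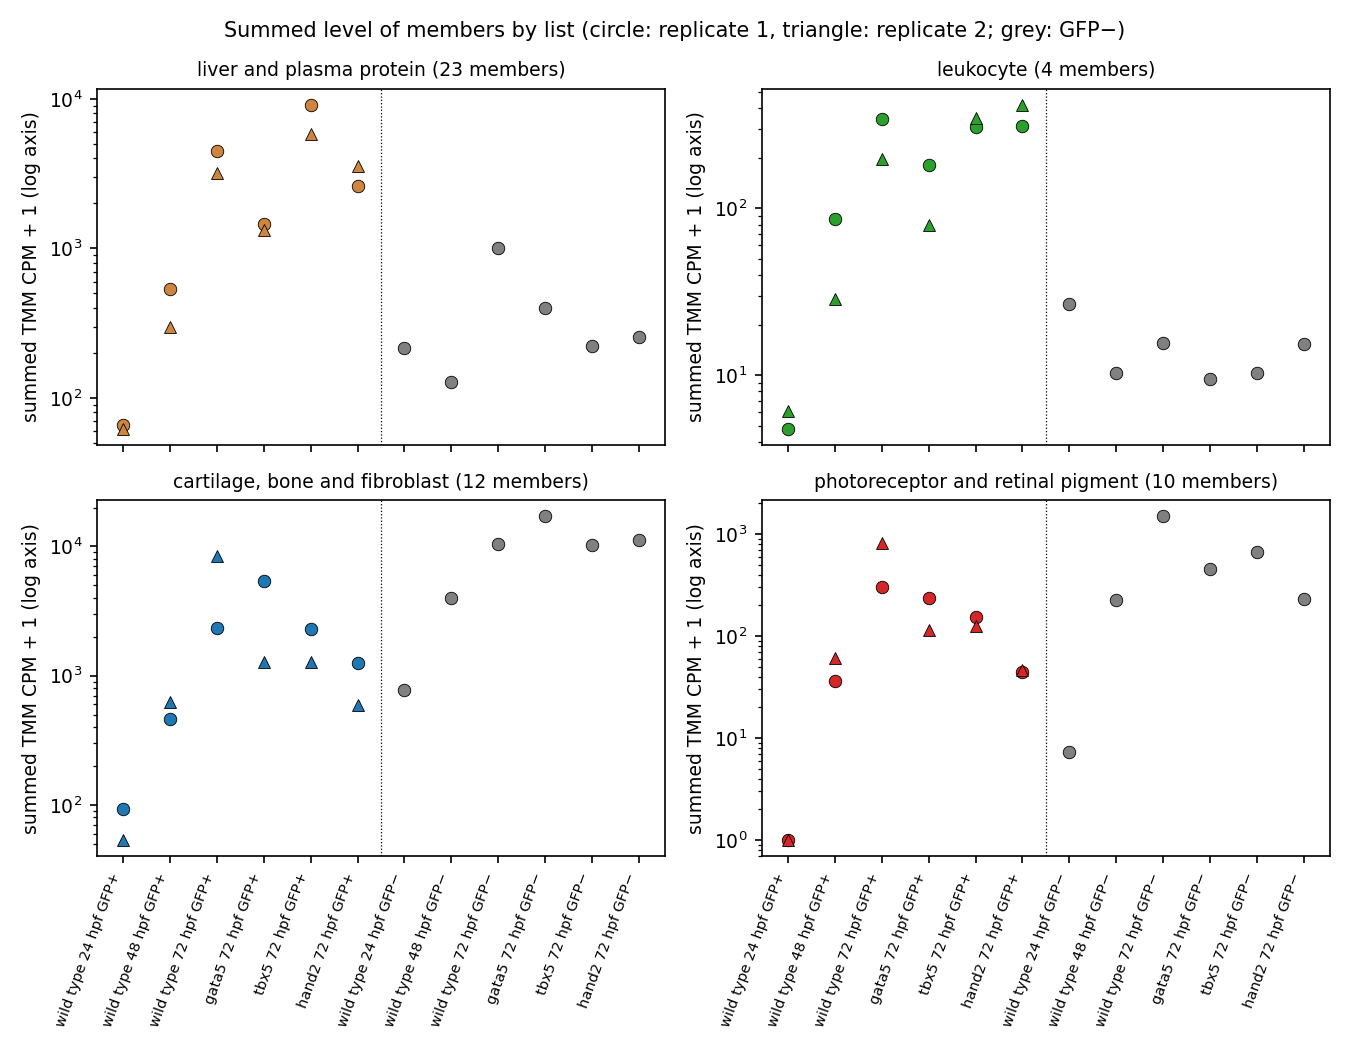
Summed TMM CPM plus 1, on a log axis, over the members on 4 lists in every library. Circles are first and triangles second replicates, coloured symbols GFP-positive and grey symbols GFP-negative libraries. Liver and leukocyte sums at 72 hpf are higher in every GFP-positive library than in any GFP-negative one, cartilage sums at each stage are higher without GFP, and for liver genes the tbx5 libraries (9082 and 5821) are the highest and the gata5 libraries (1456 and 1335) the lowest at 72 hpf.

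The second question was whether the genotypes differ from each other in these genes. The levels compared are outside the selection. The spread was estimated over libraries that include the 6 wild-type ones used to choose the genes, so the p-values are not wholly outside it. A fit to the genotype libraries alone is given below among the alternatives. Between gata5 and tbx5 GFP-positive cells 4 of 200 members differed, all lower in gata5, where 0.0379% of 23767 genes differed in either direction and 0.0337% were lower (edgeR quasi-likelihood test over 12 GFP-positive libraries in 6 groups). At an unadjusted p under 0.05 there were 54, a count for which the share of all genes was not taken, so nothing is read from it. All 4 are plasma proteins. serpina1l, at 46.0 and 30.4 TMM CPM in gata5 against 613 and 377 in tbx5, had a log2 fold of −3.66 ± 0.44 (SE) (edgeR adjusted p = 0.00565). serpina1, at 21.03 and 25.4 against 323 and 207, had −3.49 ± 0.39 (SE) (edgeR adjusted p = 0.00366). Neither gene overlapped between the 2 genotypes. PLG, at 14.7 and 8.20 against 218 and 91.4, had −3.72 ± 0.53 (SE) (edgeR adjusted p = 0.0198), and a2ml, of the alpha-2-macroglobulin family of protease inhibitors, at 12.9 and 16.7 against 236 and 129.5, had −3.60 ± 0.47 (SE) (edgeR adjusted p = 0.00609). The count was 1 without the second gata5 library, 2 without the first tbx5 library and 9 without the second. PLG missed the threshold in the first and second of these fits (adjusted p = 0.12 and 0.227), serpina1l in the first (0.0565) and a2ml in both and without the first gata5 library (0.0549, 0.0539 and 0.0542).

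The liver members leaned the same way in all 3 pairs of genotypes. Their median log2 fold was −2.87 for gata5 over tbx5 with 0 of 23 above 0, −1.62 for gata5 over hand2 with 1 of 23 above 0, and 1.37 for tbx5 over hand2 with 23 of 23 above 0. Of all 200 members 93, 113 and 145 were above 0 in these comparisons. The medians of all genes tested were 0, −0.04 and −0.02. The whole liver list, with 74 IDs tested, had medians of −2.70, −1.43 and 1.42, so the lean was not particular to the members. Summed over the 23 members, the libraries gave 1456 and 1335 TMM CPM in gata5, 9082 and 5821 in tbx5, with 2615 and 3558 in hand2, so the 3 pairs did not overlap. In GFP-negative libraries the same sums were 396 in gata5, 222 in tbx5 and 253 in hand2, with gata5 highest. The defining liver marker fabp10a, no member, had 1.85 and 1.60 in gata5, 59.08 and 38.9 in tbx5, with 12.6 and 18.9 in hand2 with GFP. TTR was at 0 in both gata5 libraries. Whether the number of liver cells in a sort or their RNA differs was not tested.

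No member passed between gata5 and hand2 or between tbx5 and hand2, where 0.00842% and 0.00421% of 23767 genes did. At an unadjusted p under 0.05 the edgeR counts were 56 and 28, and DESeq2 called 11 and 7 members at its adjusted threshold. Shares of all genes were not taken for these counts, so nothing is read from them. Without the first gata5 library edgeR called 2 members between gata5 and hand2. The medians of all members were 0.43 and 0.72 on the log2 scale, with all genes at −0.04 and −0.02. Cartilage members were higher in gata5 than in hand2 in 11 of 12 (median 1.89) and photoreceptor members in 10 of 10 (median 2.14). Epidermal members were higher in gata5 than in tbx5 and than in hand2 in 4 of 4 (medians 2.81 and 2.55). Of all 200 members 113 were higher in gata5 than in hand2 and 93 higher in gata5 than in tbx5. Genes of a list can vary together, so these counts are not repeated measures of a genotype. For gata5 over hand2 the whole cartilage list had a median of 0.78 and the whole photoreceptor list 1.44. The whole epidermis list had medians of 2.36 over tbx5 and 2.48 over hand2. The first gata5 library was the higher of its pair: cartilage members summed to 5443 and 1278 TMM CPM in gata5, 2298 and 1284 in tbx5, with 1248 and 593 in hand2, and the second gata5 library lay among the others. Photoreceptor sums were 235 and 114, 153 and 125 and 43.5 and 45.4 in the same order of genotypes, with hand2 below both without overlap. In the GFP-negative libraries, in that order, cartilage sums were 17101, 10266 and 11157, with gata5 highest there too. Photoreceptor sums without GFP were 457, 664 and 229, with hand2 again lowest. Epidermal sums without GFP were 365, 450 and 522, with gata5 lowest.

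**Figure D5:**
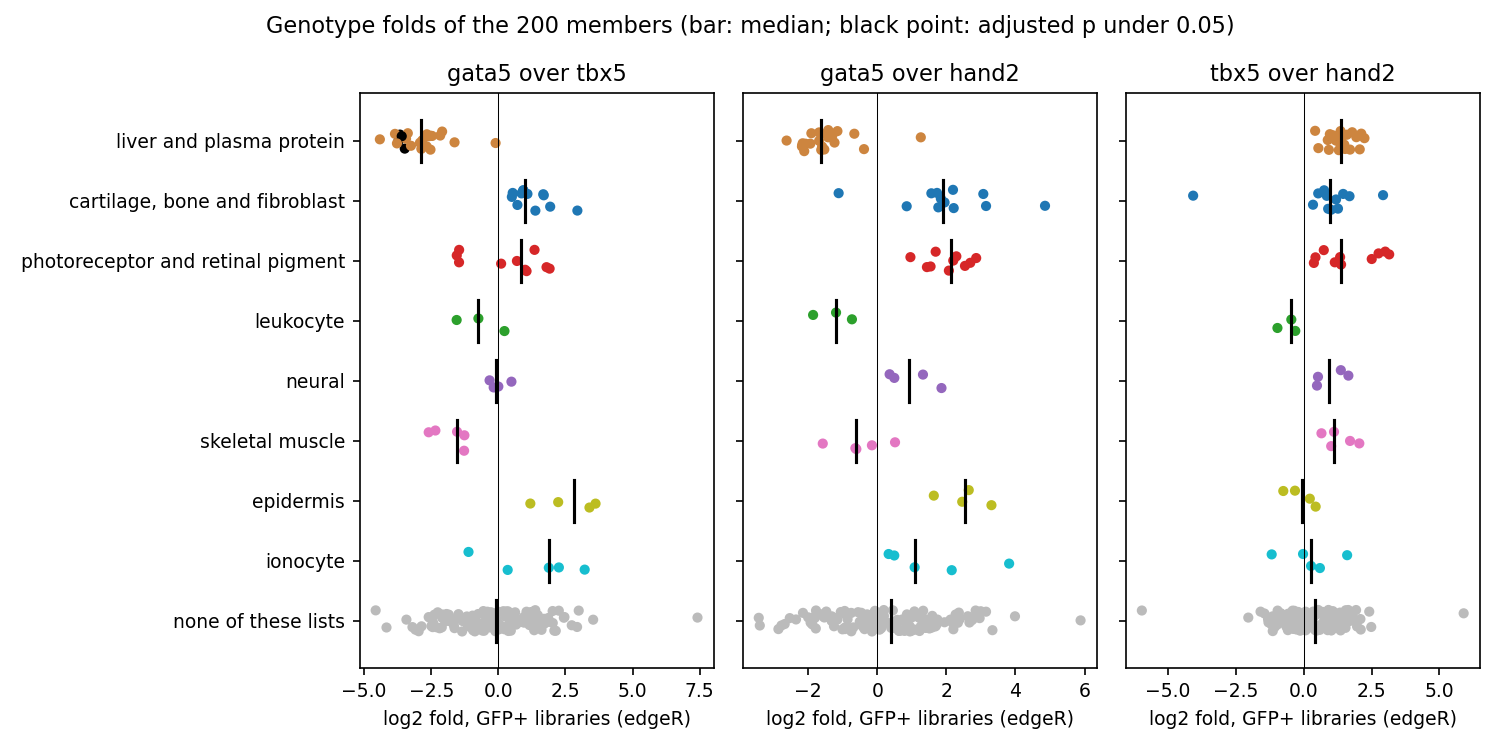
edgeR log2 folds of the 200 members between pairs of genotypes in GFP-positive libraries, by list, with apoc1 drawn among the liver genes. Bars are medians and black points passed at an adjusted p under 0.05. Liver medians are −2.87, −1.62 and 1.37 in the 3 panels, and the 4 black points are plasma protein genes in the first panel.

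Levels in the genotypes were set beside those of the wild type at 48 and at 72 hpf. The group mean lay between the wild-type means of these stages for 162 members in gata5, 105 in tbx5 and 111 in hand2. It was above the wild-type 72 hpf mean for 24, 74 and 46 members and at or below the 48 hpf mean for 14, 21 and 43. The members were chosen for a rise between these stages, which makes that range wide. The same counts were not made over the 10201 genes, so an intermediate level in the genotypes cannot be read from them. Both libraries of a genotype were below both wild-type 72 hpf libraries in 89 members for gata5, 81 for tbx5 and 121 for hand2, against 22.5%, 19.7% and 22.1% of the 10201 genes. They were above both in 8, 42 and 26 members, against 16.3%, 21.2% and 25.7%. The members were chosen for high values in these wild-type libraries, which favours lower values elsewhere, so nothing is read from the direction. At an adjusted p under 0.05 edgeR called 1, 0 and 1 members, against 0.105%, 0.0463% and 0.0505% of 23767 genes. Nothing is read from these calls either, since the selection used the same wild-type libraries.

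For the lists, sums at 72 hpf are set beside those of the wild type as a description. The summed members were chosen for high values in these wild-type libraries, so nothing is read from the direction. Liver members summed to 4500.0 and 3183 TMM CPM in the wild type at 72 hpf, between gata5 and tbx5. Photoreceptor members summed to 302 and 807, above all genotype libraries, and cartilage members to 2351 and 8499, with the first gata5 library between these values and the other 5 genotype libraries below both.

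Some members are neighbours in the genome. Of 137 members placed by symbol in the GRCz12tu gene table, 23 lay in 13 pairs with at most 2 protein-coding genes between them. They include the apolipoprotein cluster of apoeb, apoc1, apoa2 and apoc2 on chromosome 16, serpina1l and serpina1 on chromosome 20, FGB and fga on chromosome 1, and smyhc1 and smyhc2 on chromosome 24. RBP4 and PDE6C, a cone phosphodiesterase subunit, are adjacent on chromosome 12, and both went up more than 2-fold without GFP, RBP4 with 5.83, 11.4 and 320.5 TMM CPM at 24, 48 and 72 hpf and PDE6C with 1.34, 2.77 and 156. No overlap was tested against chance.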

How the data were processed

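Counts per Ensembl gene and log2 (rlog) values for 18 libraries were used as the authors deposited them. The deposited counts are whole numbers with no normalization. The submitters' processing notes name DESeq2, with no version and no role, Trimmomatic 0.36, STAR 2.5, SAMtools 1.4 and build GRCz10. Per the labels' protocols, RNA came from a Trizol-based column with DNase, and libraries from the SMARTer low input kit. No source used here names the counting tool, the annotation or the strand, so antisense and overlapping genes cannot be told apart. Symbols came from a gene name table for 24555 of 28298 IDs. An upper-case symbol can stand for several zebrafish copies: 35 members share theirs with another ID, and 9 have none.

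The members, the 42 gene lists and the tests were chosen with earlier results of these data known. TMM factors, edgeR 4.0.16 quasi-likelihood fits (filterByExpr, minimum count 10 and total 15, robust) and Benjamini-Hochberg adjustment over all genes tested were run in R 4.3.3, and DESeq2 1.42.0 was an alternative. The test between fractions used 9 libraries with background as a covariate (25307 genes, 5 residual degrees of freedom), and that between genotypes 12 GFP-positive libraries in 6 groups (23767 genes, 6 degrees of freedom). All 200 members passed both filters. The call was an adjusted p under 0.05. The SE printed with a log2 fold is the absolute fold divided by the square root of its quasi-likelihood F statistic. It is therefore an approximation and not an error estimated by the fit. GFP-negative changes are differences of log2(TMM CPM + 1). Both fits were also run on simulated counts. Their spread between libraries was fixed and smaller than that estimated in the data, so nothing is drawn from that run. The genes named are the 20 top scores, up to 3 per list, those at the limit and the 5 largest called folds per test and direction. Alternatives were other size factors, no filter, replicate numbers as a block, other sets of libraries, pseudocounts and folds. Results for a few members are not reported here. No sequence is printed, since none was in the tables used here.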

Additional observations from a re-analysis of the deposited data

Results flagged for a closer look

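Each difference below was flagged because both libraries of one genotype lay on one side of their own GFP-negative library and both of another genotype on the opposite side. The differences between genotypes were not tested, and each rests on 2 GFP-positive libraries and 1 GFP-negative library per genotype. The members named in the text and the summed levels of the cell type lists were examined. The values are the gap between 2 mean differences of GFP-positive minus GFP-negative on the log2(TMM CPM + 1) scale.

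zgc:136930, rank 4, was above its GFP-negative library in gata5 by 1.87 and below it in tbx5 and hand2, gaps of 4.36 and 2.83. si:dkey-183i3.5, rank 19, was above in gata5 by 2.61, with gaps of 5.04 to tbx5 and 3.30 to hand2. The summed level of the 4 epidermal keratin members was above in gata5 by 1.25, with gaps of 2.87 to tbx5 and 3.01 to hand2. Of its members, krt5 was above by 1.69, with gaps of 3.42 and 3.19, and krt91 by 1.13, with gaps of 2.83 and 3.26. ATP1B1 was above in gata5 by 1.72, with gaps of 2.25 to tbx5 and 3.22 to hand2. RBP4 was above in tbx5 by 0.34 and below in gata5 and hand2, gaps of 0.75 and 0.79. PER1 was below in gata5 by 0.75 and above in tbx5 and hand2, gaps of 1.05 and 1.36. VIL1 was above in tbx5 by 0.90 and below in gata5, a gap of 2.21. The first gata5 library was the higher of its pair for both unnamed genes and for the keratin sum, and the part of epidermal cells in these values was not tested.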

How the results depend on the processing

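The count of members that differed between fractions, 144, stayed between 107 and 160 under every alternative run, and leaving out 1 library gave 111 to 148. Over all genes the share called between fractions moved too. It was 25.4% in the main fit, 18.9% with the replicate number as a block and 16% in the fit to all 18 libraries. Counts between genotypes depended on the fit. The share of all genes called in each alternative is not given here, so nothing about the members is read from a larger count. For gata5 against tbx5 the main count of 4 became 58 with no filter on low counts, 19 in a fit to 6 genotype libraries, 24 with DESeq2, and 1 to 9 without 1 library. For gata5 against hand2 the count of 0 became 59, 1 and 11, and 0 to 2 without 1 library. For tbx5 against hand2 it became 18 with no filter and 7 with DESeq2, and 0 without any 1 library. Against the wild type, no filter and DESeq2 gave 30 and 17 for gata5, 43 and 17 for tbx5, and 45 and 35 for hand2, with 0 to 9, 0 to 6 and 0 to 10 without 1 library, each highest without the first wild-type library. The cause was not tested. The set itself kept 162 of 200 members on log2(TMM CPM + 1), 156 with a minimum of 20 CPM and 188 with 5. The GFP-negative count of 158 stayed between 118 and 165, and that of rises in both intervals, 60, became 37 with a pseudocount of 5, 94 at 1.5-fold and 19 at 4-fold. Among named genes 169 alternatives gave the same call, 7 lost it and 0 reversed.

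Between GFP-positive groups no pairing by replicate number was seen: over 15 pairs of groups the correlation of replicate differences ran from −0.09 to 0.09 and 0 were over 0.1. Each condition has 1 GFP-negative library, so whether it pairs with a GFP-positive one could not be checked this way. With the replicate number as a block the counts were 126 between fractions, 6 for gata5 against tbx5, 0 and 0 for the other pairs, and 1, 0 and 1 against the wild type. With 2 libraries per group and totals from 5705157 to 32141901, low members at 24 hpf rest on few counts.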

Other observations

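The genes named here are on none of the lists used for the counts above and were chosen after their values were seen. They were counted on no list, so nothing is said of a group. FTCD and UROC1 act in the breakdown of histidine. FTCD had 0 and 0 TMM CPM at 24 hpf, 2.66 and 0.823 by 48 hpf and finally 54.4 and 44.97 by 72 hpf in wild-type GFP-positive libraries, then 81.7 and 39.3 in tbx5, 21.7 and 25.9 in hand2 and 19.3 and 19.0 in gata5, with 2.29 in tbx5, 3.24 in hand2 and 8.74 in gata5 in the GFP-negative libraries (log2 fold 2.84 ± 0.61 (SE), edgeR adjusted p = 0.00430). UROC1 had 0 and 0 TMM CPM at 24 hpf, 0.420 and 1.26 by 48 hpf and finally 21.99 and 15.4 by 72 hpf, then 90.7 and 29.4 in tbx5, 16.1 and 21.7 in hand2 and 10.03 and 10.9 in gata5, with 3.503 in tbx5, 1.67 in hand2 and 2.87 in gata5 without GFP (log2 fold 3.27 ± 0.53 (SE), edgeR adjusted p = 2.86e-04). For FTCD the second tbx5 library lay below both wild-type libraries of 72 hpf, and for UROC1 both tbx5 libraries lay above all other GFP-positive ones. BHMT, which remethylates homocysteine, did not pass (log2 fold 1.18 ± 0.43 (SE), edgeR adjusted p = 0.0709), nor did KMO of the kynurenine pathway (log2 fold 3.59 ± 1.45 (SE), edgeR adjusted p = 0.127).

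The next 3 genes are known from neurons and were called lower in GFP-positive cells. GRIN1, the obligate subunit of NMDA glutamate receptors, had 0 and 0 TMM CPM at 24 hpf, 8.61 and 10.1 by 48 hpf and finally 22.95 and 40.1 by 72 hpf, then 15.6 and 14.1 in tbx5, 2.80 and 20.5 in hand2 and 36.8 and 36.4 in gata5, against 299 in tbx5, 176 in hand2 and 143 in gata5 without GFP (log2 fold −3.39 ± 0.60 (SE), edgeR adjusted p = 0.00331). DNM1, the dynamin of synaptic vesicle recycling, had a log2 fold of −3.23 ± 0.43 (SE) (edgeR adjusted p = 1.72e-04), and NPAS4, a transcription factor induced by neuronal activity and at rank 23, −2.93 ± 0.38 (SE) (edgeR adjusted p = 9.25e-05).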
